A study of Mus musculus with 4 samples.

Results

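The transcripts of IL-4 and IL-13 receptor signalling were examined in airway epithelial cells sorted by FACS from mouse lung. The 10 members were chosen by gene symbol from the 25124 rows of the deposited table, and all 10 were found. They were the receptor chains Il4ra, Il13ra1, Il13ra2 and Il2rg, the kinases Jak1, Jak2 and Tyk2, the transcription factor Stat6, the feedback inhibitor Socs1 and the target gene Retnla. The mice were C57BL/6 with the genotype WT. In 2 samples they had received house dust mite (HDM) and an SCD1 inhibitor, SCD1 being stearoyl-CoA desaturase, which puts a double bond into saturated fatty acids, and in 2 samples HDM and the vehicle dimethyl sulfoxide (DMSO). All 4 samples had thus received HDM, an allergen that provokes type 2 inflammation of the airway. The compound, its dose, the animals' ages and whether animals were pooled were not stated in the labels, and mice without HDM were not analysed here. Nothing states that the samples came from separate animals, so p-values measure only the spread between these samples, which may be technical.

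IL-4 and IL-13 share a receptor chain, the product of Il4ra. It pairs with the common gamma chain (Il2rg) to bind IL-4, mainly on leukocytes, or with the product of Il13ra1 to bind either cytokine, the form used by airway epithelium. The bound receptors activate the kinases JAK1, JAK2, JAK3 and TYK2, which phosphorylate STAT6, and STAT6 then enters the nucleus and turns on target genes. In mouse lung these include genes of mucus-producing goblet cells and Retnla, which encodes the secreted protein RELM-alpha.

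Retnla is the target gene among the members, and its promoter is shown because it was the single member whose promoter window held the palindrome that STAT6 is known to prefer. The window, from RefSeq (GRCm38.p6), covers chr16:48842359-48842658 on the plus strand, from 250 bases before to 50 bases after the annotated start. Capitals mark the palindrome TTCNNNNGAA at position -145 and a TATAAA box at position -30.
Retnla: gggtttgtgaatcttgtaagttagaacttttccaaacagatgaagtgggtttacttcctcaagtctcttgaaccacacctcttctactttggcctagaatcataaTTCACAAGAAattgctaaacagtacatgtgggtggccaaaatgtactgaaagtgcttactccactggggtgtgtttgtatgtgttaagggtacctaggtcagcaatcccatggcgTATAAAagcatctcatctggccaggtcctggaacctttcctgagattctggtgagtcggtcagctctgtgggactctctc

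All 10 members matched a RefSeq promoter, with 1 window each. TTCNNNNGAA, which reads the same on both strands, was found in 1 of the 10, against 6.95% of all 32851 promoter windows of that length. The shorter form TTCNNNGAA was found in 0 of the 10, against 8.30% of all windows. TATAAA was sought on the gene's own strand and stood in 8.32% of all windows, and it did not overlap the palindrome in Retnla. A match is a match of letters and not a measured binding site. The paralog Retnlg, 28.16 kb away on the same chromosome, held the same palindrome 72 bases before its annotated start, inside a closely similar stretch. The 30-base windows around both palindromes, at chr16:48842454-48842483 and chr16:48872526-48872555 on the plus strand, are set out here with the palindrome in capitals.
Retnla: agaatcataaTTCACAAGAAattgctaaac
Retnlg: aatgtcataaTTCACAGGAAattgctataa
These windows matched at 24 of 30 bases, and within the palindrome they differed by A7G, counted from 1 at its 5′ end with the base of Retnla first. The promoters of the members were otherwise unlike each other in base composition. That of Jak2 held 44 CpG dinucleotides and was 81.0% G and C, while those of Retnla, Il2rg and Il13ra2 held 2, 3 and 1 CpG dinucleotides. The median over all windows was 52.7% G and C.

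Each value was a gene's read count over its library's size factor, called normalised reads here. The 4 libraries held 24591122 to 27013663 reads assigned to genes. Differences were tested with limma on log2(value + 25.8), where 25.8 normalised reads equal 1 CPM, and log2 fold changes are on that scale. A gene was tested if its mean reached 25.8 normalised reads, which 13810 genes did. Of these, 247 (1.79%) passed the threshold of 0.05 on the Benjamini-Hochberg adjusted p, with 188 (1.36%) higher and 59 (0.427%) lower with the inhibitor. This count rested on single libraries and on the model, at 5 and 15 genes without SCD1 inhibitor replicate 1 or 2, 795 and 355 without DMSO replicate 1 or 2, 10 with edgeR, 484 with DESeq2 and 0 with limma without its intensity trend. The sort label was matched by epithelial markers, of which Cdh1 had 40262 and 41501 normalised reads with the inhibitor and 43870 and 47179 with DMSO. The pan-leukocyte marker Ptprc had 241 and 69.2 normalised reads with the inhibitor and 48.7 and 181 with DMSO.

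None of the 9 members that could be tested passed the test (limma, 0 of 9 higher and 0 lower, against 1.36% and 0.427% of all genes tested, 1.79% in all). A share of 1.79% comes to fewer than 1 gene in 9, so the count of 0 is no result about the members as a set. With edgeR 0 of 9 passed and with DESeq2 0 of the 6 members that it gave an adjusted p. At an unadjusted p under 0.05, 1 of 9 members stood out with limma, the kinase gene Jak2, where 14.1% of all genes tested did. The tenth member, Il13ra2, lay below the floor for testing. The median log2 fold change of the 9 was 0.059, and that of all genes tested was 0.0056. Their median absolute log2 fold change was 0.19, against 0.23 over all genes tested. In 4 of the 9 (44.4%) there was no overlap between the groups, which was close to the 44.9% of all genes tested.

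**Figure D1:**
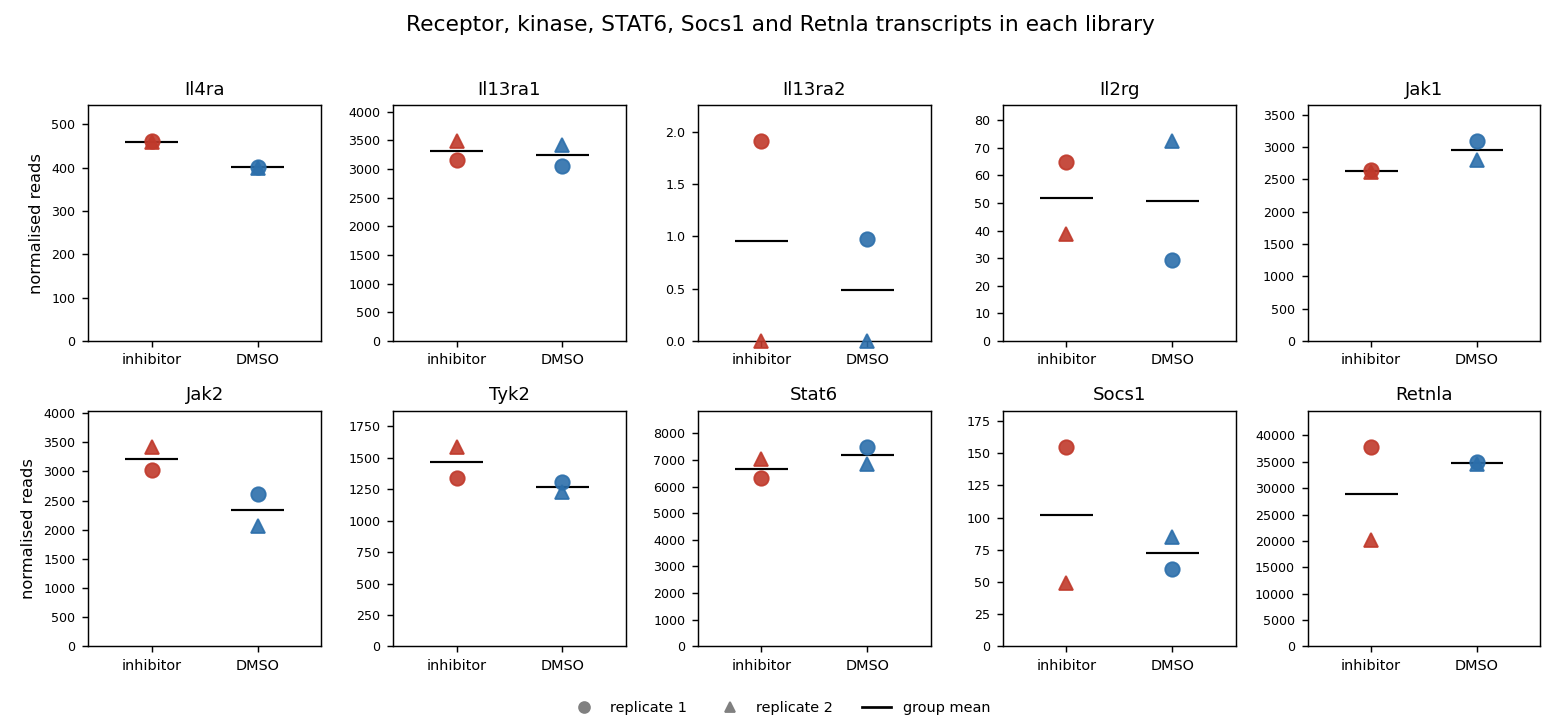
Normalised reads of each of the 10 members in each library, on a linear axis from 0, with the inhibitor libraries (red) left of the DMSO libraries (blue); circles are replicate 1, triangles replicate 2 and lines group means. Il4ra, Jak1, Jak2 and Tyk2 have groups that do not overlap, and among the tested members Socs1 and Retnla have the widest relative gaps within the inhibitor pair.

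Of the 4 receptor chains, 3 could be tested and 0 passed, and Il13ra1 had the narrowest interval of the 3. Il4ra, the chain common to both receptors (chromosome 7, 125552120 to 125579474, plus strand, mm10), had 461 and 459 normalised reads with the inhibitor and 403 and 398 with DMSO. The inhibitor libraries were both higher, by more than the gap within either pair. The counting error of a library at this depth was larger than those gaps, however, with exact Poisson 95% intervals of 420.4 to 504 and 417 to 505 with the inhibitor and 365 to 443 and 360.4 to 439 with DMSO (counting error only). The log2 fold change was 0.19 ± 0.27 (SE) and did not pass limma's test (adjusted p = 0.819), with a 95% interval of -0.40 to 0.78.

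Il13ra1, the partner chain on epithelium (chromosome X, 36112110 to 36171259, plus strand), had 3156 and 3484 normalised reads with the inhibitor and 3058 and 3428 with DMSO. The groups overlapped, and each pair spread more widely than the groups differed. Its log2 fold change of 0.034 ± 0.13 (SE, limma adjusted p = 0.937) had a 95% interval of -0.25 to 0.32, that is 0.841-fold to 1.25-fold. Per kilobase of exon Il13ra1 was the most abundant receptor chain, at a mean of 884 normalised reads per kb over the 4 libraries, against 81.9 for Il4ra, 30.7 for Il2rg and 0.316 for Il13ra2. Within each library Il13ra1 stood 9.70-fold and 10.7-fold above Il4ra per kb with the inhibitor and 10.8-fold and 12.2-fold with DMSO.

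Il13ra2 encodes a receptor chain that binds IL-13 tightly and is known in mouse as a decoy that limits its action. It was near absent, with 2 and 0 reads with the inhibitor and 1 and 0 reads with DMSO, all below the limit of 3 reads that a count of 0 allows in a library. A difference in this decoy was therefore not detectable at this depth, and no fold was formed.

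Il2rg, the gamma chain that many leukocyte cytokine receptors share, was low. It had 65.0 and 38.8 normalised reads with the inhibitor and 29.2 and 72.3 with DMSO, and DMSO held both the highest and the lowest library. Its log2 fold change was 0.059 ± 0.59 (SE, limma adjusted p = 0.978), and the wide 95% interval ran from -1.21 to 1.33. Without DMSO replicate 1 the value was -0.36 and without DMSO replicate 2 it was 0.48. SCD1 inhibitor replicate 1 and DMSO replicate 2 were the higher libraries of their pairs in Il2rg. Of the 8 pan-leukocyte markers, 4 had that order in both pairs (Ptprc, Coro1a, Lcp1 and Rac2), 3 had it in 1 pair, and Cd52 ran the other way in both, with 21.0 and 57.7 normalised reads with the inhibitor and 15.6 and 10.9 with DMSO. The summed level of the 8 was 3678 and 2111 normalised reads with the inhibitor and 2868 and 3851 with DMSO. Lcp1, the most abundant of them, made up most of this sum, with 2839 and 1473 normalised reads with the inhibitor and 2325 and 2691 with DMSO. The 9 markers of T cells and related lymphocytes in the table summed to 91.7 and 94.4 normalised reads with the inhibitor and 21.4 and 38.7 with DMSO, and the 9 granulocyte markers to 28.7 and 15.7 with the inhibitor and 21.4 and 30.7 with DMSO. Of the lymphocyte markers, Cd3g, Nkg7 and Gata3 were listed at 0 in every library. Cd3d and Cd3e had 28.7 and 5.73 normalised reads in SCD1 inhibitor replicate 1 and were at 0 in the other libraries, and Cd2 had 31.5 and 29.4 with the inhibitor and 0 and 0 with DMSO. Of the 9 granulocyte markers, 6 were at 0 in every library, S100a8 and S100a9 among them, while Csf3r, Cxcr2 and Epx were above 0 in some. The most abundant lymphoid markers, Lck and Cd79b, reached 65.0 and 98.1 normalised reads. The part of such cells in the Il2rg values was not tested. In these bulk samples fewer cells of a type and less RNA per cell cannot be told apart.

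**Figure D2:**
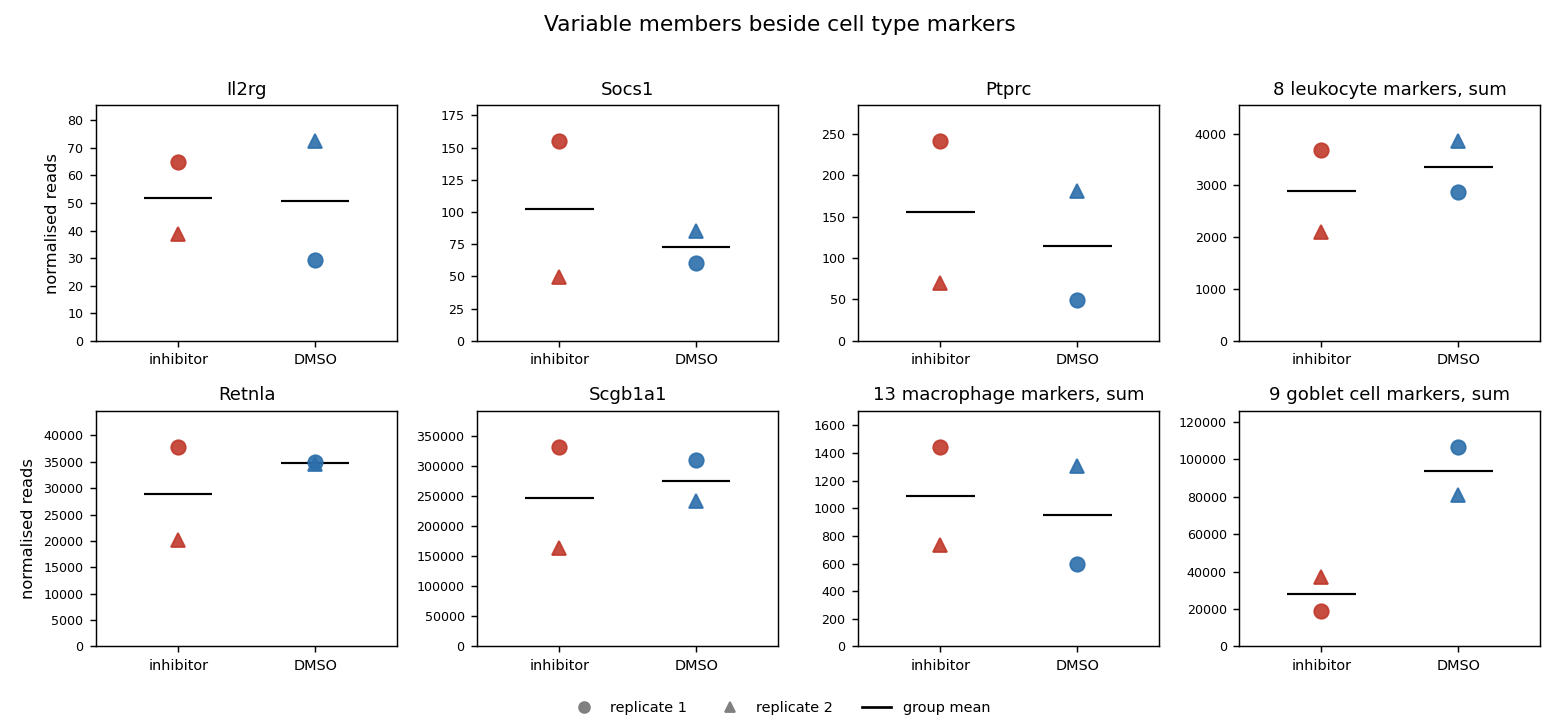
Normalised reads in each library for Il2rg, Socs1 and Retnla beside Ptprc, the club cell marker Scgb1a1 and the summed levels of 8 leukocyte, 13 macrophage and 9 goblet cell markers; symbols are circles for replicate 1, triangles for replicate 2 and lines for group means. Il2rg and Ptprc are high in SCD1 inhibitor replicate 1 and DMSO replicate 2, while the goblet cell sum separates the groups, at 19181 and 37200 with the inhibitor against 106532 and 80974 with DMSO.

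Among the kinases, Jak2 had the largest absolute log2 fold change of all tested members. JAK2 is bound by several cytokine receptors, among them the IL-13 receptor. Jak2 (chromosome 19, 29251828 to 29313080, plus strand) had 3022 and 3417 normalised reads with the inhibitor and 2611 and 2064 with DMSO. Both inhibitor libraries lay above both DMSO libraries. The log2 fold change was 0.46 ± 0.15 (SE), or 1.38-fold with a 95% interval, not adjusted for the number of genes, of 1.10-fold to 1.73-fold, and did not pass over all genes (limma adjusted p = 0.165). Without DMSO replicate 1, which lay nearer to the inhibitor libraries than DMSO replicate 2, the log2 fold change was 0.63. Jak2 passed the threshold in that fit, where DMSO replicate 2 alone stood for its group. Without DMSO replicate 2 the log2 fold change was 0.30, and Jak2 did not pass. Without SCD1 inhibitor replicate 1 or 2 the log2 fold change was 0.55 or 0.38.

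Jak1, whose product binds the Il4ra chain, had 2647 and 2612 normalised reads with the inhibitor and 3087 and 2806 with DMSO. The groups did not overlap, with the inhibitor libraries lower, and the log2 fold change of -0.16 ± 0.13 (SE) did not pass (limma adjusted p = 0.645). Tyk2, which binds the Il13ra1 chain, had 1341 and 1584 normalised reads with the inhibitor and 1309 and 1224 with DMSO. Its groups did not overlap either, with a log2 fold change of 0.20 ± 0.17 (SE, limma adjusted p = 0.661).

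Since Jak1 and Jak2 lay in opposite directions, their balance within a library, which no scaling between libraries can change, was also formed; this ratio was chosen after the values were seen. Per kb of exon, Jak2 stood at 1.11 and 1.28 times Jak1 with the inhibitor and at 0.825 and 0.718 times with DMSO. Jak2 was thus the more abundant of the pair in both inhibitor libraries and the less abundant in both DMSO libraries. An exact two-sided permutation of the libraries on the log2 ratio gave p = 0.333, the smallest p that this design allows, so it could not decide. The ratio was also formed after both genes were seen to separate the groups, and no result is drawn from it.

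Stat6, the transcription factor through which both cytokines act (chromosome 10, 127642986 to 127660957, plus strand), was abundant, at or above 95.5% of tested genes by mean level. It had 6328 and 7015 normalised reads with the inhibitor and 7483 and 6847 with DMSO. The groups overlapped, with SCD1 inhibitor replicate 2 above DMSO replicate 2. The log2 fold change was -0.10 ± 0.11 (SE, limma adjusted p = 0.748), with a 95% interval of -0.35 to 0.15. Exons of Stat6 overlap those of Nab2 on the other strand, and those of Il2rg overlap a gene model on the same strand. The labels do not say whether counting used strand, so these levels may hold reads of the neighbours.

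**Figure D3:**
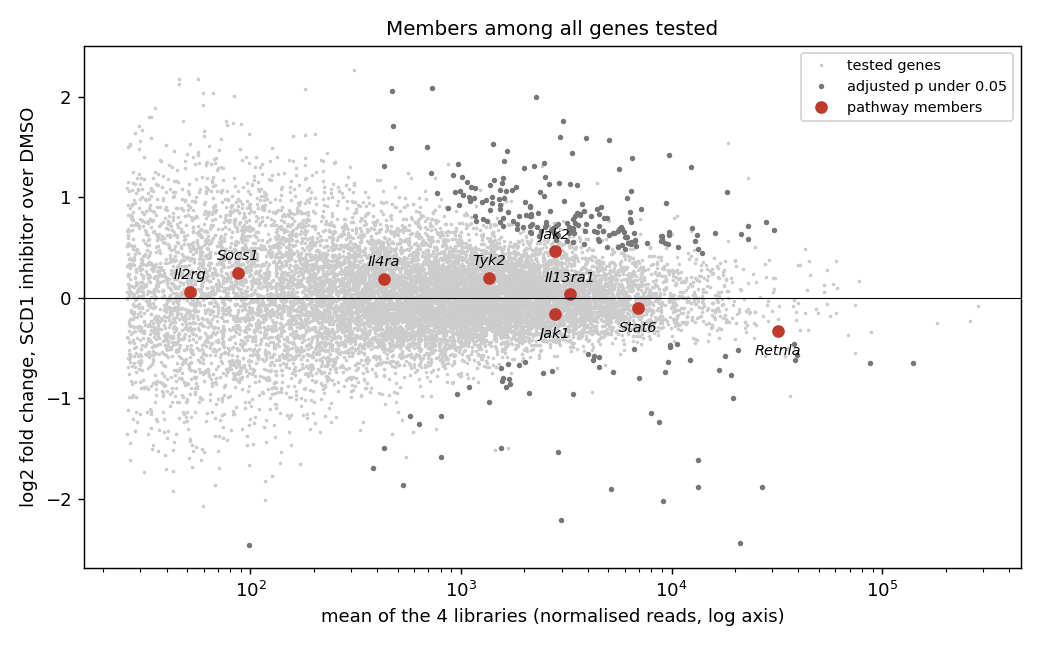
Log2 fold change of SCD1 inhibitor over DMSO (y axis) against the mean of the 4 libraries in normalised reads (x axis, log scale) for the 13810 genes tested (light grey), the 247 that passed (dark grey) and the 9 tested members (red). The members lie among the genes that did not pass, from Jak2 at 0.46 down to Retnla at -0.33, and Retnla is among the most abundant genes.

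Socs1, which encodes a STAT-induced protein that blocks JAK kinases and so closes a feedback loop, had the widest relative gap within a pair among the tested members. It had 155 and 49.3 normalised reads with the inhibitor and 60.4 and 85.2 with DMSO. SCD1 inhibitor replicate 1 was the highest library and SCD1 inhibitor replicate 2 the lowest, so that the DMSO libraries lay between them. The gap within the inhibitor pair exceeded counting error, with exact Poisson 95% intervals of 132 to 181 and 36.2 to 65.6. The log2 fold change was 0.25 ± 0.56 (SE, limma adjusted p = 0.891). Leaving out SCD1 inhibitor replicate 2 gave 0.88, and leaving out replicate 1 of that group gave -0.38.

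Retnla, the target gene (chromosome 16, 48842551 to 48844461, plus strand), was at or above 99.7% of tested genes by mean level. It had 37814 and 20172 normalised reads with the inhibitor and 35060.4 and 34553 with DMSO. The DMSO libraries were nearly equal, and the inhibitor libraries lay on either side of them. The log2 fold change was -0.33 ± 0.20 (SE), with a 95% interval of -0.77 to 0.10, and did not pass (limma adjusted p = 0.506). Its direction rested on SCD1 inhibitor replicate 2: without that library it was 0.12 (adjusted p = 0.945), while leaving out the other inhibitor library gave -0.79 (adjusted p = 0.102).

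Markers of epithelial and other cell types stood in these libraries as well. Scgb1a1, the most abundant club cell marker, had 332447 and 163459 normalised reads with the inhibitor and 310825 and 241855 with DMSO. Of the 10 club cell markers, 7 were lowest in SCD1 inhibitor replicate 2, as Retnla was, and 3 in SCD1 inhibitor replicate 1 (Scgb3a1, Bpifa1 and Lypd2). SCD1 inhibitor replicate 2 was also the lowest library for 8 of the 10 alveolar type 2 markers, 1 of the 9 goblet cell markers and 0 of the 8 epithelial markers. The part of club or alveolar type 2 cells in the Retnla values was not tested. Macrophages can also express Retnla in mice. The 13 macrophage markers summed to 1444 and 733 normalised reads with the inhibitor and 597 and 1309 with DMSO. Of the 13, 1 and 5 were at 0 in the inhibitor libraries and 5 and 1 in the DMSO libraries. Csf1r was the most abundant of them, with 400.4 and 222 normalised reads with the inhibitor and 312 and 234 with DMSO. Within the inhibitor pair, replicate 1 was the higher in both the macrophage sum and Retnla. DMSO replicate 1, with the lowest macrophage sum, had Retnla at 35060.4 normalised reads, against 34553 in DMSO replicate 2. The part of macrophages in the Retnla values was not tested. Of the other resistin family genes, Retnlg had 132 and 116 normalised reads with the inhibitor and 114 and 83.2 with DMSO (log2 fold change 0.28 ± 0.46, SE, limma adjusted p = 0.849), while Retnlb was listed at 0 and Retn lay below the floor. Reads of such paralogs could be split between them by the counting and are uncertain to that extent.

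The cytokines themselves were barely present in the sorted cells. Il4 had 15.3 and 13.6 normalised reads with the inhibitor and 27.3 and 0 with DMSO, and Il13 had 5.73 and 21.0 with the inhibitor and 0 and 9.91 with DMSO. Both lay below the floor for testing, where 5 of the 7 listed ligands and alarmins lay in all. Il33, the alarmin that epithelium releases on injury, had 1065 and 857 normalised reads with the inhibitor and 943 and 775 with DMSO (log2 fold change 0.16 ± 0.21, SE, limma adjusted p = 0.802). Il5, a cytokine of eosinophil growth, had 85.0 and 24.1 with the inhibitor and 0 and 64.4 with DMSO (log2 fold change 0.62 ± 0.73, SE, adjusted p = 0.765). Of 13 further receptors of type 2 and gamma chain cytokines, 5 could be tested and 0 passed. Il15ra had 196 and 187 normalised reads with the inhibitor and 129 and 123 with DMSO, and Crlf2, the thymic stromal lymphopoietin receptor, had 23.9 and 61.9 with the inhibitor and 91.6 and 73.3 with DMSO (limma adjusted p = 0.624 and 0.629).

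Of the other JAK and STAT genes examined, 5 could be tested and 0 passed. The log2 fold change was negative in 4 of the 5, as in 6810 of all 13810 genes tested, and the list median was -0.34 against 0.0056. The groups did not overlap in 3 of the 5 (60.0%), against 44.9% of all genes tested, and with 5 genes neither count is read as a result about the list. Stat5b, a transducer of cytokine and growth hormone signals, had 892 and 871 normalised reads with the inhibitor and 1105 and 1248 with DMSO (log2 fold change -0.40 ± 0.19, SE, limma adjusted p = 0.360). Stat2 had 933 and 880.1 with the inhibitor and 1290.5 and 1036 with DMSO (log2 fold change -0.34 ± 0.20, SE, adjusted p = 0.470).

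Negative regulators of the pathway stood on both sides of 0. Of 16 tested, 7 were positive and 9 negative, 0 passed, and the list median was -0.016. Ptpn2, a phosphatase that acts on JAK and STAT proteins, had 1125 and 869.6 normalised reads with the inhibitor and 745 and 532 with DMSO (log2 fold change 0.63 ± 0.24, SE, adjusted p = 0.243 in limma). Both inhibitor libraries were higher, and the gene passed without DMSO replicate 1 (adjusted p = 0.0464, log2 fold change 0.86). Socs3, the feedback inhibitor of IL-6 family signals, had 8004 and 3789 normalised reads with the inhibitor and 4310.1 and 2741 with DMSO (log2 fold change 0.68 ± 0.27, SE, adjusted p = 0.280). The groups overlapped, and Socs3 passed when DMSO replicate 1 was left out (adjusted p = 0.0240) but had 0.14 when SCD1 inhibitor replicate 1 was. Of 6 genes of receptor adaptors and of phosphoinositide 3-kinase, 0 passed. The adaptor gene Shc1 had 1705 and 1656 normalised reads with the inhibitor and 2114 and 2175 with DMSO (limma adjusted p = 0.305). The kinase subunit gene Pik3ca had a log2 fold change of 0.15 (limma adjusted p = 0.713).

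Snd1 was the 1 gene that fell among the 5 STAT6 cofactors, where 0.427% of all genes tested fell. It encodes a coactivator that binds STAT6 and also acts in RNA processing. Snd1 had 3388 and 3485 normalised reads with the inhibitor and 5369 and 4963 with DMSO, and the groups stood well apart. Its level was 0.667 times that with DMSO, with a log2 fold change of -0.58 ± 0.12 (SE, limma adjusted p = 0.0302). The call held with DESeq2 (-0.59, adjusted p = 0.000573). It ended with edgeR (-0.60, adjusted p = 0.110), with limma without its intensity trend (adjusted p = 0.453), with no filter on low values (adjusted p = 0.0723) and when an inhibitor library was left out, at -0.56 (adjusted p = 0.441) for replicate 1 and -0.60 (adjusted p = 0.506) for replicate 2. The median of the 5 cofactors was 0.17.

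**Figure D4:**
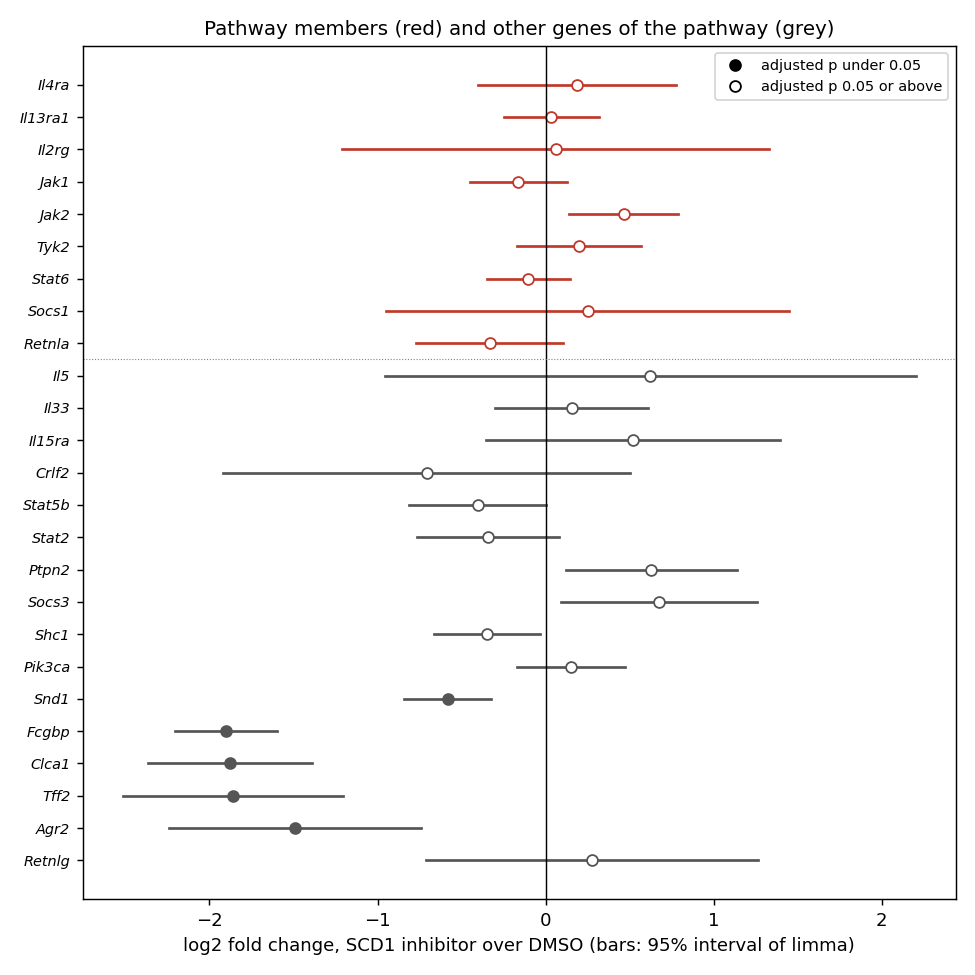
Log2 fold change of SCD1 inhibitor over DMSO with limma's 95% interval (bars) for the 9 tested members (red) and the 16 further pathway genes named (grey), with filled points for an adjusted p under 0.05. The filled points are Snd1 at -0.58 and the response genes Fcgbp, Clca1, Tff2 and Agr2, at -1.90 to -1.49, and the members' points lie between -0.33 and 0.46.

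Genes that IL-13 is known to induce in airway epithelium were set beside the receptor side of the pathway. Of 21 listed, 13 could be tested and 4 fell (30.8%), against 0.427% of all genes tested. All 4 are goblet cell markers, and the list was compiled with earlier results of these samples known. Clca1, a secreted goblet cell protein, had 8106 and 15504 normalised reads with the inhibitor and 48387 and 35269 with DMSO, 3.68-fold lower (limma adjusted p = 0.00163). Fcgbp, Tff2 and Agr2, which encode proteins of mucus or of mucin folding, were 3.74-fold, 3.64-fold and 2.82-fold lower (adjusted p = 5.75e-05, 0.0102 and 0.0476). Of these, Clca1 and Fcgbp kept their call without each library in turn, Tff2 lost it without either inhibitor library, and Agr2 without either inhibitor library or DMSO replicate 2. With edgeR only Fcgbp of the 4 passed (Clca1, Tff2 and Agr2 had adjusted p = 0.0714, 0.0760 and 0.138), and without limma's intensity trend none did (adjusted p = 0.450 to 0.453). Agr2 lay close to the threshold and also lost its call with TMM or library total scaling, the pseudocount of 0.25 CPM and no filter (adjusted p = 0.0535 to 0.135). The 6 tested response genes outside the goblet cell markers had a median of 0.31 (log2 fold change), and 0 of them passed. They ran from -1.15 to 2.08, with 4 positive and 2 negative. The value of 2.08 was that of Postn, with 303 and 252 normalised reads with the inhibitor and 0 and 172 with DMSO. It thus rested in part on the 0 of DMSO replicate 1. That library was also the lowest for 4 of the 5 fibroblast markers above 0, and DMSO replicate 2 for 1. The median of these 6 is therefore not read as that of epithelial cells alone. Retnla did not pass either. Within the inhibitor pair Retnla and Clca1 ran in opposite order, with SCD1 inhibitor replicate 1 the higher in Retnla and the lower in Clca1.

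Markers of cell types were set beside these genes. Of the 9 goblet cell markers 6 fell (limma), and 4 of the 6 are the response genes named above. Of the 10 club cell markers 5 fell, with a list median log2 fold change of -0.62. Of the 10 alveolar type 2 markers 5 fell, with a list median of -0.54. Of all genes tested 0.427% fell, and their median was 0.0056. Of the 8 ciliated cell markers 0 fell and 1 was called higher, where 1.36% of all genes tested were, with a list median of 0.20. The club cell markers summed to 673320 and 464681 normalised reads with the inhibitor and 768502 and 670348 with DMSO. The alveolar type 2 markers summed to 329454 and 272781 with the inhibitor and 421757 and 478237 with DMSO. Of the 7 basal cell markers 6 could be tested and 0 passed, with a median of -1.30 and sums of 943 and 3121 with the inhibitor and 5245 and 3986 with DMSO. Of the 6 fibroblast markers 5 could be tested and 0 passed, with a median of 0.72 and sums of 2489 and 2516 with the inhibitor and 889.9 and 2155 with DMSO. No club, alveolar type 2 or goblet cell marker was at 0 in any library. The part of these cell types in the values of the response genes was not tested.

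The genes most like Il4ra over the 4 libraries, by the root-mean-square distance of centred log2 values, were Impad1, Sucla2 and Ptges3 (distances of 0.0074 to 0.010). For Stat6 they were Adcy6, Copb2 and Pdpk1 (0.0063 to 0.0093), and for Retnla Zfp93, Pla2g4f and Ly6g6e (0.032 to 0.038). With 4 libraries and 13810 genes, such closeness is a description of these values alone.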

How the data were processed

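RNA was sequenced from 4 samples of sorted lung airway epithelial cells. Per the labels, TRIzol was used to extract the RNA and a directional kit to make the libraries. The deposited signal values are gene counts divided by 1 size factor per library, as read from the values: every value was within 0.01 read of a whole multiple of the library's smallest step (100% of values). The step of DMSO replicate 2 lies within 1% of 1, so that its unit rests also on its size factor. HOMER, DESeq2 and mm10 are named in the submitters' processing notes, without roles or versions; aligner and filters: not given in the sources used here.

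Values were tested as log2(value + 25.8) with limma 3.58.1 in R 4.3.3 (intensity trend, group as the term, no block, prior degrees of freedom 11.2) and adjusted over 13810 genes. Recovered whole reads were used for edgeR 4.0.16 and DESeq2 1.42.0. At the floor, counting error is 19.7% in a library. No labels give a batch. The members and lists were chosen with earlier results of these data known. Named were all members, from each pathway list the genes that passed or else the pair of smallest p, and the most abundant marker of the lists used. Some were named after their values were seen. These were the leukocyte and club cell markers other than the most abundant, the Jak2 to Jak1 ratio, Retn, Retnlb, Il4, Il13 and Postn. Coordinates and exon lengths are from GENCODE M21 (GRCm38, which is mm10) and promoters from RefSeq GRCm38.p6. Alternatives were other scalings, pseudocounts and floors, no intensity trend, a replicate block, edgeR, DESeq2 and leaving out each library. Figures were made with Python 3.11.15 and matplotlib 3.10.9. One gene of the pathway lists is not reported here.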

Additional observations from a re-analysis of the deposited data

How the results depend on the processing

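The count of genes passing was 247 (188 higher, 59 lower). It was 64 (51 and 13) with no filter on low values, 0 (0 and 0) with limma without its intensity trend (1423 at an unadjusted p under 0.05), 10 (7 and 3) with edgeR and 484 (339 and 145) with DESeq2. Leaving out each library gave 5 to 795 genes, with 0 to 616 higher and 5 to 179 lower. The cause of these shifts was not tested. The replicate numbers share only a number: the deviations of same-numbered samples correlated across genes at r = 0.073. With the replicate block 674 genes passed (469 and 205) and 1 member, Jak2 (log2 fold change 0.46, adjusted p = 0.0379). It also took Socs3 past the threshold (0.68, adjusted p = 7.8e-05) and 7 of the response genes against 4, and changed the call of 0 other members or named pathway genes. Under the scalings, pseudocounts and floors tried, 0 members passed and every tested member kept its direction. Il2rg and Socs1 fell below the floor of 5 CPM, and Il13ra2 was fitted only with no filter and in DESeq2. Leaving out each library gave 0 to 1 members passing and a median of the members of -0.039 to 0.15. The log2 fold changes then ran from -0.048 to 0.12 for Il13ra1, -0.36 to 0.48 for Il2rg, 0.30 to 0.63 for Jak2, -0.38 to 0.88 for Socs1, -0.79 to 0.12 for Retnla and -0.28 to 1.53 for Il5. With 1 sample left in a group, that sample is assumed to vary like the other group. TMM scaling moved the median of all genes to -0.0045 and library totals to 0.010. Depth limits Il13ra2, Il4 and Il13, which lay below the floor for testing.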
